A study of Mus musculus with 9 samples.

Results

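Gene expression in the brains of APP/PS1 mice exposed to stress was compared with that of APP/PS1 mice kept in an enriched environment. The comparison holds 6 of the 9 libraries of the study, 3 stress animals and 3 enriched animals, which the animals' titles and the group field of the labels assign. The other 3 libraries came from APP/PS1 mice in a standard environment. They entered the fit to estimate the spread between animals, and their levels are given beside the others for reference. APP/PS1 mice carry transgenes that lead to amyloid plaques, and all 9 animals had this genotype, so no group without the transgenes was included here. The kind and length of the stress, what the enriched cages held, and the animals' age and sex are not given in the sources used here. The labels' treatment field reads "Standard rearing" for every animal, also for the stressed and the enriched ones. The animal codes begin with C for all 3 stress animals and with D for all 3 enriched animals. The meaning of the letter is unknown here, and its part and that of the housing cannot be told apart between these groups.

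Per the series' design text, mice were perfused after behavioural testing, and RNA came from the brain stem and the anterior part of the brain, extracted as 1 sample per animal. Totals of estimated counts lay between 15851833 and 17213008 per library, and 14694 genes were tested. Levels are CPM, counts scaled by library size after TMM scaling, and 1 CPM stands for 15.9 to 16.8 reads. Brain markers were abundant in each of the 6 libraries, with the synaptic vesicle fusion gene Snap25 at 1987 to 2627 CPM and the inhibitory transmitter enzyme Gad1 at 632 to 1090 CPM. The Purkinje cell gene Pcp2, a cerebellar marker, was also present in all 6, at 232 to 761 CPM. Nothing in the labels says that the replicates shared a cage or a day, and each title carries an animal code of its own.

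Activity of neurons switches on immediate early genes within minutes. Most of them encode transcription factors, such as the Fos, Egr and Nr4a families, which then act on later genes of synapses and growth factors. Calcium and cyclic AMP signals reach several of these genes through the factor CREB, which binds the cyclic AMP response element (CRE). Stress also releases glucocorticoids, which act on the brain through the glucocorticoid receptor. Enriched housing is widely used in mice as a source of sensory, motor and social stimulation.

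No gene differed between stress and enriched animals after correction. By the quasi-likelihood test of edgeR, with p-values adjusted by Benjamini-Hochberg, 0.0% of genes (0 of 14694) had an adjusted p under 0.05, and the smallest adjusted p was 0.999. Without adjustment 388 genes (2.64%) had p under 0.05, 205 lower (1.4%) and 183 higher (1.25%) in stress. DESeq2 called 0 genes as well, with 387 at an unadjusted p under 0.05 and a smallest adjusted p of 0.0641. Limma-voom with sample weights called 0 and left 1099 genes at an unadjusted p under 0.05. Without enriched replicate 1 the count at an unadjusted p under 0.05 in edgeR's test was 239, and without enriched replicate 3 it was 223.

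The values set limits on how large most differences can be. The median standard error of a log2 fold change was 0.163, with 0.1001 at the 10th and 0.381 at the 90th percentile of genes. For 12622 genes (85.9%) the whole 95% interval lay between a 2-fold decrease and a 2-fold increase. The median log2 fold change of all genes was 0.01, with 48.1% of genes below 0 and 51.9% above. In 1541 genes (10.5%) the 3 stress and the 3 enriched values did not overlap, with stress lower in 797 (5.42%) and higher in 744 (5.06%). Pearson's r of log2 CPM across genes, which are not independent replicates, was 0.973 to 0.988 over the 9 pairs of a stress and an enriched library. It was 0.968 to 0.983 within stress and 0.981 to 0.984 within enriched.

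**Figure D1:**
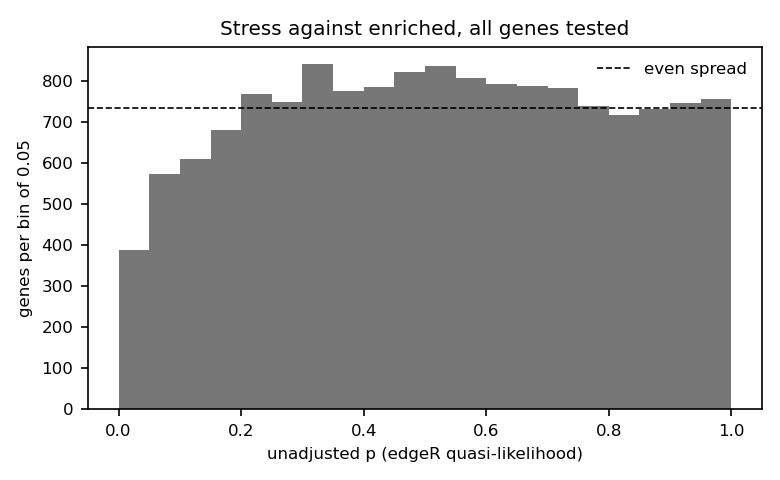
Number of tested genes in each interval of 0.05 of the unadjusted p of stress against enriched (edgeR quasi-likelihood test, 14694 genes), with the dashed line at the 735 genes per interval of an even spread. The lowest interval holds 388 genes, fewer than the dashed line.

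Immediate early genes were the group with the lowest median among the lists described here. Of 18 members tested, 17 lay below 0 in stress against enriched and 1 above, with a median log2 fold change of -0.55 against 0.01 over all genes. No member passed the test after adjustment. In 7 members the stress values all lay below the enriched values (5.42% of all genes did so), and 7 had an unadjusted p under 0.05 (1.4% of all genes were lower at that p). Summed over the 18 genes, the level was 466, 756 and 702 CPM in the stress libraries and 873, 818 and 977 CPM in the enriched libraries. The enriched libraries were the 3 highest of all 9, and the standard libraries, at 665, 466 and 644 CPM, covered about the same range as the stress libraries.

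The promoters of these genes are shown because the CRE is the element through which activity is known to reach several of them. A RefSeq promoter sequence (GRCm38.p6) was at hand for 14 of the 18 genes, and the 250 bases before each annotated start were searched on both strands. The short form of the CRE (TGACG, or CGTCA on the other strand) was found in 11 of the 14, against 28.8% of the 11668 tested genes with a promoter. The full element TGACGTCA was found in 2 of 14 (Btg2 and Dusp1), against 2.91% of all, and every full element also holds the short form. With single libraries left out, the log2 fold change ran from -0.14 to 0.18 for Btg2 and from -0.32 to -0.03 for Dusp1. The AP-1 letters TGANTCA, the site bound by Fos and Jun proteins, were found in 0 of 14, against 5.62%. A match is a description of the letters and no evidence of binding. The genes were listed as activity genes beforehand, and the search did not compare the housing groups. The part of these letters in the difference between stress and enriched animals was not tested. The stretches below run from 10 bases before the first match to 10 bases after the last, 5′ to 3′ on the gene's strand, with short forms and full elements in capitals.
Nr4a2 (chr2:57124100-57124213, minus strand): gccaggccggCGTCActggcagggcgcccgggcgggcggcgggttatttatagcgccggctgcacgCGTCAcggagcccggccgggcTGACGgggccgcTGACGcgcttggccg
Fos (chr12:85473751-85473838, plus strand): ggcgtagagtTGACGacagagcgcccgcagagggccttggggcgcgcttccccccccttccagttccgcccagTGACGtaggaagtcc
Dusp1 (chr17:26508598-26508673, minus strand): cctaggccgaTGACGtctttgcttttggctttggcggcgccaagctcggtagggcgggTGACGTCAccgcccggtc
The stretch of Nr4a2 holds 4 short forms, that of Fos holds 2, and that of Dusp1 holds 1 beside its full element.

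The Nr4a genes encode orphan nuclear receptors that work as transcription factors. Nr4a3 (gene 18124, chr4:48045078-48086447) stood at 12.1, 11.3 and 8.12 CPM in stress and at 18.8, 24.8 and 26.5 CPM in enriched animals. The groups did not overlap. The standard animals had 20.7, 11.5 and 15.5 CPM, with 1 in the enriched range, 1 in the stress range and 1 between them. Its log2 fold change was -1.15 ± 0.237 (SE), with an unadjusted p of 0.000711 in edgeR's quasi-likelihood test and an adjusted p of 0.999 by Benjamini-Hochberg. Nr4a2 (gene 18227, chr2:57106830-57124003), a factor of dopamine neurons as well, had 11.6, 10.6 and 8.43 CPM in stress and 15.4, 21.5 and 19.9 CPM in enriched animals, a log2 fold change of -0.89 ± 0.225. Nr4a1 had 31.1, 44.3 and 40.5 CPM in stress and 70.0, 63.9 and 79.2 CPM in enriched animals, a log2 fold change of -0.88 ± 0.259. For all 3 receptors each stress animal was below each enriched animal, and none passed after adjustment.

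The Fos family encodes partners of Jun in the AP-1 complex. Fosb stood at 5.04, 7.38 and 9.22 CPM in stress and at 16.9, 10.7 and 15.6 CPM in enriched animals, a log2 fold change of -0.996 ± 0.260. Fosl2 stood at 14.8, 12.3 and 11.7 CPM in stress and at 31.4, 18.9 and 29.2 CPM in enriched animals, a log2 fold change of -1.03 ± 0.279. Neither overlapped between the groups, and neither passed. Fos itself overlapped, because stress replicate 2, at 38.0 CPM, reached the enriched values of 38.8, 38.4 and 33.4 CPM, while the other stress animals had 16.9 and 20.0 CPM. Arc, whose protein acts at the synapse, also overlapped, at 49.6, 107 and 105 CPM in stress and 140, 98.5 and 138 CPM in enriched animals (log2 fold change -0.52 ± 0.308).

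Values of 4 further members were chosen after they were seen, to show the spread of the list. Egr1, a zinc finger factor, had 83.0, 174 and 133 CPM in stress and 178, 182 and 228 CPM in enriched animals, a log2 fold change of -0.59 ± 0.264 without overlap. Egr2, of the same family, had the lowest log2 fold change of the list, -1.22 ± 0.435, at 1.15, 3.75 and 3.24 CPM in stress and 7.13, 3.75 and 8.09 CPM in enriched animals. Npas4, a factor specific to neurons, differed most between animals of a group, at 3.77, 22.6 and 10.5 CPM in stress and 14.6, 8.86 and 17.3 CPM in enriched animals. Ier2 was the member above 0, with a log2 fold change of 0.12 ± 0.215. Stress replicate 1 was the lowest of the 6 libraries in Egr1, Egr2 and Npas4, and without that library the median of the list was -0.29. Over the libraries left out one at a time, the median ranged from -0.78 to -0.29.

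**Figure D2:**
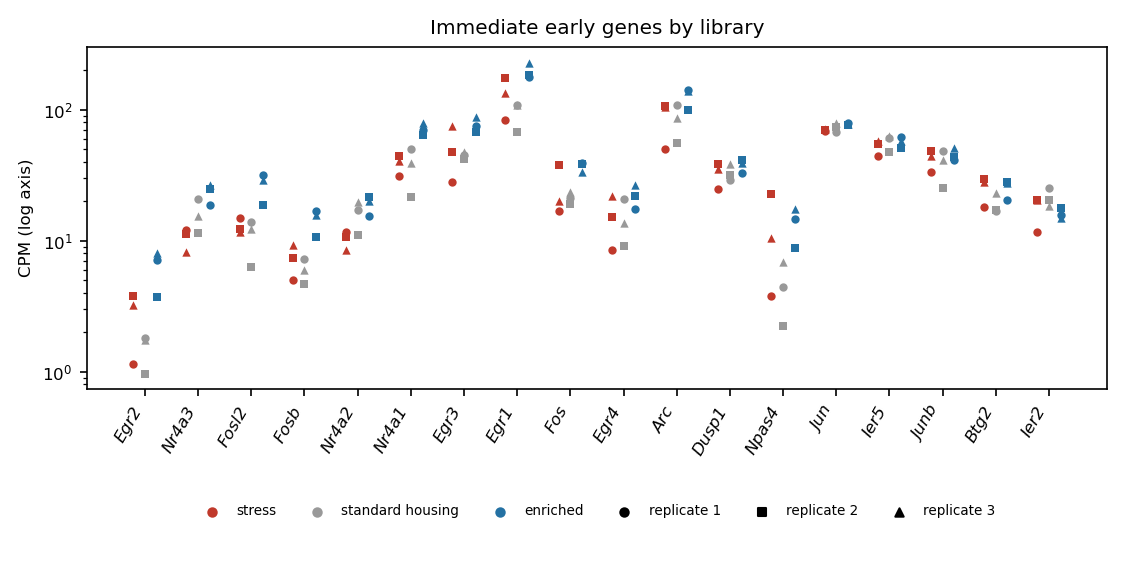
CPM (log axis) of the 18 immediate early genes in every library, ordered from the lowest to the highest log2 fold change of stress over enriched, with colours for the housing and marker shapes for the replicate. The stress points of Nr4a3, Fosb, Nr4a2 and Nr4a1 all lie below the enriched points, while those of Fos, Arc and Npas4 overlap.

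Genes of the olfactory bulb neuron list were lower in stress alongside the immediate early genes, though none passed the test. The list is not specific to the bulb. Slc17a7 is also in the cortical list, Cck and Dlx1 are in that of inhibitory interneurons, and Calb2 is in the thalamic list. Its levels can therefore also hold transcripts of other regions. All 14 tested bulb neuron genes were below 0 in stress against enriched, with a median of -0.51. None had an unadjusted p under 0.05 in edgeR's test or groups that did not overlap. Over all genes, 1.4% were lower at that p and 5.42% were lower without overlap. The bulb list summed to 1888 to 2365 CPM in stress, 2363 to 2725 CPM in enriched and 1698 to 2520 CPM in standard animals, with no member at 0 in any library. Eomes, a factor of mitral and tufted cells, had 32.7, 46.8 and 19.7 CPM in stress and 66.4, 37.9 and 52.2 CPM in enriched animals. Th, the dopamine synthesis enzyme that bulb and midbrain neurons make, had 52.2, 68.5 and 27.3 CPM in stress and 114, 34.8 and 91.1 CPM in enriched animals. In both genes the groups overlapped, with enriched replicates 1 and 3 highest. With the bulb list's mean as a covariate, an alternative chosen after the data were seen, the median of the immediate early genes was -0.41. Without enriched replicates 1 and 3 together, the libraries highest in the bulb list, it was -0.44, with only 1 enriched animal left. The bulb's part in the lower immediate early levels was not tested further. In whole tissue, fewer cells of a type and less RNA per cell cannot be told apart.

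Later activity-induced genes showed the same side of 0 with smaller values. Of 17 members tested, 14 were below 0, with a median of -0.18, and 2 had stress values all below the enriched values, as 5.42% of all genes did. Sik1, a kinase that restrains CREB signalling, had 9.29, 12.98 and 7.82 CPM in stress and 19.4, 14.2 and 17.4 CPM in enriched animals, without overlap and with a log2 fold change of -0.76 ± 0.193. Per1, a clock gene that activity and glucocorticoids both induce, had 69.0, 64.9 and 64.7 CPM in stress and 84.5, 76.2 and 88.5 CPM in enriched animals. Inhba, which encodes a subunit of activin, overlapped, at 10.4, 13.5 and 7.33 CPM in stress and 24.1, 11.1 and 17.4 CPM in enriched animals. Bdnf, the neurotrophin most studied in enrichment, stood at 18.2, 19.9 and 20.0 CPM in stress and 26.8, 16.7 and 22.6 CPM in enriched animals. Its log2 fold change was -0.18, with a 95% interval from -0.70 to 0.33.

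Growth factor and synaptic lists lay slightly below 0. In the list of neurotrophins and growth factors 13 of 20 were below 0 (median -0.09). Igf1, an insulin-like growth factor, had 10.8, 10.8 and 6.90 CPM in stress and 18.3, 11.1 and 15.7 CPM in enriched animals, apart by a narrow margin. Among glutamate receptor subunits 17 of 22 were below 0 (median -0.05), and 4 had stress values all below the enriched values, against 5.42% of all genes. The kainate receptor subunit Grik3 had 91.3, 109 and 98.1 CPM in stress and 127, 127 and 125 CPM in enriched animals. Its groups stood apart, with a log2 fold change of -0.34 ± 0.106. Among postsynaptic scaffold and plasticity genes 14 of 17 were below 0 (median -0.21). Nlgn3, a neuroligin that holds the postsynaptic side of the synapse, had 37.5, 38.1 and 32.6 CPM in stress and 44.9, 48.6 and 47.1 CPM in enriched animals, also without overlap (log2 fold change -0.38 ± 0.116).

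Neuron class lists did not share 1 direction. Those of the cortex and of inhibitory interneurons lay mostly below 0. Striatal genes were below 0 in 10 of 15 (median -0.10) and thalamic genes in 9 of 14 (median -0.07). Brain stem and monoamine neuron genes, given below, lay above 0 in 19 of 19. Midbrain dopamine neuron genes did so in 7 of 8 and hypothalamic genes in 7 of 9. Relative to the standard mean, the midbrain list's mean log2 CPM was 1.41, 0.17 and -0.73 in stress animals. In enriched animals it was 0.57, -0.22 and 0.14. The hypothalamic list was at 0.46, 0.01 and -0.05 in stress and 0.76, -0.21 and -0.19 in enriched animals, so both overlapped. Hippocampal genes lay above 0 in 7 of 12 (median 0.03), near the 51.9% of all genes. Cortical excitatory neuron genes were below 0 in 11 of 13 (median -0.14). The upper layer factor Cux2 had 64.0, 68.8 and 67.5 CPM in stress and 87.6, 81.0 and 83.1 CPM in enriched animals, a log2 fold change of -0.33 ± 0.0934 without overlap. Inhibitory interneuron genes were below 0 in 14 of 17 (median -0.25), and several of them are also made in the olfactory bulb. Gad1 stood at 675, 825 and 632 CPM in stress and at 1090, 748 and 945 CPM in enriched animals, with stress replicate 2 above enriched replicate 2. Cerebellar neuron genes were split evenly, 8 below and 8 above 0, with a median of -0.01.

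**Figure D3:**
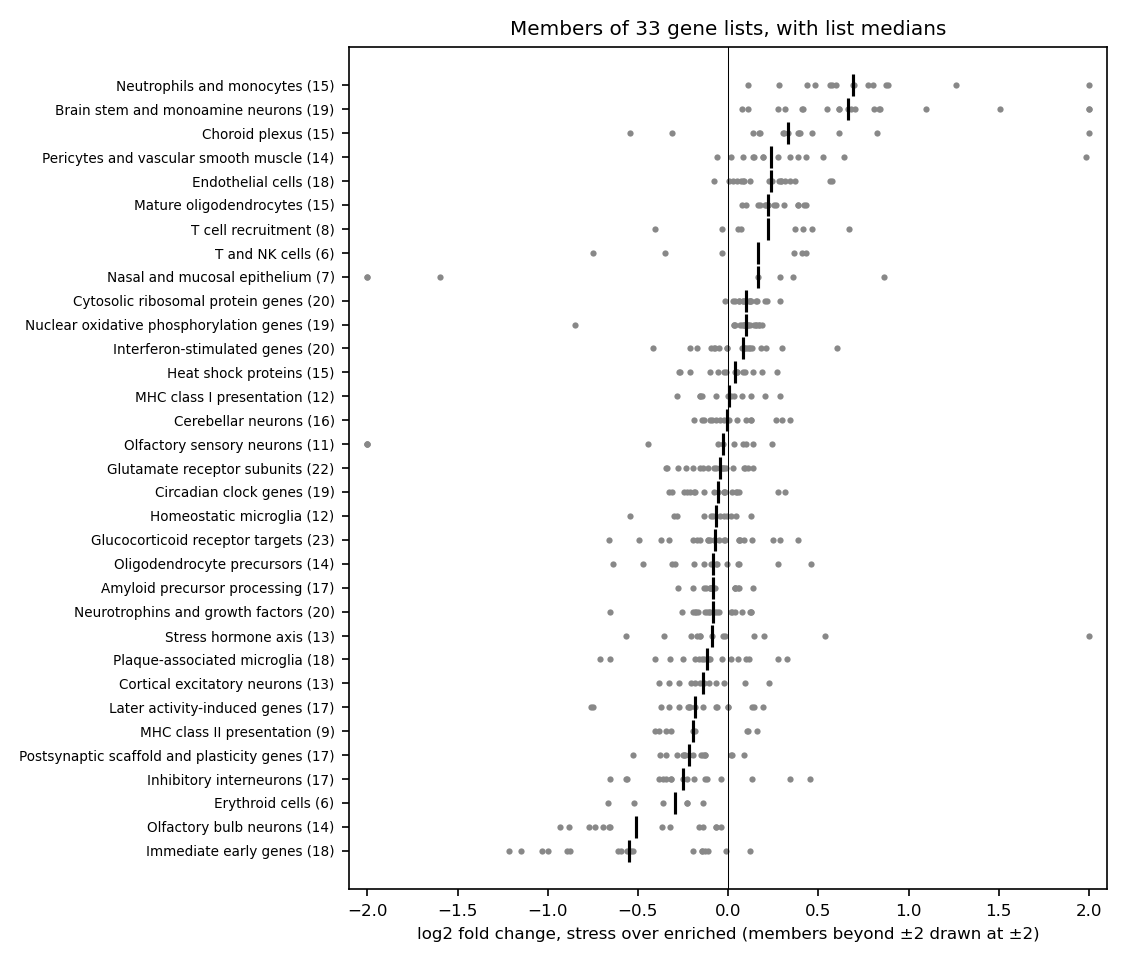
Log2 fold change of stress over enriched for each tested member of 33 gene lists (grey points), with the list median (black bar) and the number of members tested in parentheses. Immediate early and olfactory bulb genes have the lowest medians (-0.55 and -0.51), and neutrophil and brain stem genes the highest (0.69 and 0.66).

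Glucocorticoid receptor targets did not stand higher in the stressed animals. Of 23 tested targets 15 were below 0 and 8 above, with a median of -0.07. Fkbp5, a co-chaperone of the receptor and one of its most used target genes, had 23.7, 23.1 and 20.8 CPM in stress and 32.2, 21.8 and 33.7 CPM in enriched animals. Enriched replicate 2 lay within the stress range, and the log2 fold change was -0.37 with a 95% interval from -0.75 to 0.00. Cdkn1a, a cell cycle inhibitor, had 31.7, 46.6 and 51.2 CPM in stress and 74.5, 42.9 and 65.2 CPM in enriched animals. Zbtb16, another target, overlapped too, with stress at 15.3, 15.9 and 18.1 CPM and enriched animals at 27.7, 14.9 and 35.4 CPM.

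Of the stress hormone axis, 13 of 20 genes could be tested, and 9 were below 0 (median -0.09). Nr3c1, the glucocorticoid receptor gene, had 89.4, 93.7 and 91.2 CPM in stress and 84.3, 110 and 112 CPM in enriched animals (log2 fold change -0.16 ± 0.163). Crh, which encodes corticotropin-releasing hormone, had 4.13, 6.09 and 3.12 CPM in stress and 8.57, 4.82 and 6.397 CPM in enriched animals, with overlap. Pomc, the precursor of corticotropin, reached 51.3 CPM in stress replicate 3 alone, against 1.09 and 0.862 CPM in the other stress animals and 7.49, 1.13 and 0.878 CPM in enriched animals. Pomc is also a member of the pituitary list and makes up most of that list's highest sum in stress, 65.4 CPM, against 17.2 CPM at its highest in enriched animals. The part of pituitary tissue in the Pomc value was not tested.

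The series title concerns CD8+ T cells, and T cell transcripts were near the limit of detection. Cd8a, a chain of the CD8 receptor, had 3, 1 and 2 reads in stress and 2, 2 and 5 reads in enriched animals. Cd3e, part of the T cell receptor complex, had 2, 2 and 1 reads in stress and 5, 1 and 1 reads in enriched animals. Both were too low to be tested, and a difference in T cells was not detectable with them at this depth. The list of T and NK cells summed to 123, 120 and 135 reads in stress and 150, 111 and 127 reads in enriched animals, and 2 to 5 of its members were at 0 in each of the 6 libraries. Of 25 genes in the list 6 could be tested, 3 below and 3 above 0. Cd4 had 9, 2 and 12 reads in stress and 11, 11 and 17 reads in enriched animals.

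Genes that attract or hold T cells lay above 0 in 6 of 8 tested (median 0.22). Icam1, an adhesion molecule of vessel walls, had 6.13, 8.37 and 7.08 CPM in stress and 5.03, 5.89 and 4.70 CPM in enriched animals, without overlap (log2 fold change 0.47 ± 0.207). Ccl19, a chemokine for T cells, had 0.607, 0.554 and 0.489 CPM in stress and 0.359, 0.476 and 0.188 CPM in enriched animals, a few reads in each library. MHC class I genes were split 6 to 6 (median 0.01), and MHC class II genes were below 0 in 6 of 9 (median -0.19). H2-Aa, a class II chain, had 9.29, 5.48 and 4.83 CPM in stress and 8.03, 9.39 and 7.46 CPM in enriched animals, with overlap. MHC genes have similar sequences that can share reads, and the effect of this on their estimated counts was not tested.

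Interferon-stimulated genes were 11 above and 9 below 0 (median 0.08). Xaf1 had 3.64, 4.12 and 3.36 CPM in stress and 1.68, 2.38 and 3.26 CPM in enriched animals, narrowly without overlap (log2 fold change 0.60 ± 0.267). Samd9l, an antiviral factor, was alike in both groups, at 6.01, 7.32 and 5.62 CPM in stress and 6.95, 5.89 and 6.21 CPM in enriched animals. The interval of its log2 fold change of -0.01 ran from -0.41 to 0.39, and the standard animals had 1.99, 2.54 and 1.997 CPM. Slc10a7, a transporter-like membrane protein, had the same layout, with a log2 fold change of -0.04 and an interval from -0.56 to 0.48.

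Microglia and amyloid genes differed little. Microglia are the immune cells of the brain and gather around plaques. Homeostatic microglia genes were below 0 in 9 of 12 (median -0.06), and plaque-associated genes in 12 of 18 (median -0.12). Itgax, a marker of plaque-associated microglia, had 2.31, 2.40 and 5.13 CPM in stress and 3.77, 4.28 and 8.09 CPM in enriched animals. Trem2, a receptor that microglia need to respond to plaques, had 23.7, 18.7 and 37.3 CPM in stress and 28.0, 25.0 and 35.4 CPM in enriched animals (log2 fold change -0.15, interval -0.71 to 0.41). Amyloid processing genes were below 0 in 11 of 17 (median -0.09). App had 2888, 2753 and 2978 CPM in stress and 2762, 3233 and 3121 CPM in enriched animals, a log2 fold change of -0.08 with an interval from -0.34 to 0.17. Bace1, the beta-secretase, had 69.8, 64.2 and 51.97 CPM in stress and 80.03, 69.6 and 76.01 CPM in enriched animals, with stress replicate 1 just above enriched replicate 2. Whether transgene reads were counted at App was not tested.

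Transcripts of blood and vessel cells varied with single animals, and the lists did not share 1 direction. All 15 tested neutrophil and monocyte genes were above 0 (median 0.69). None had groups that did not overlap, and 1 had an unadjusted p under 0.05 in edgeR's test. Over all genes, 5.06% were higher in stress without overlap and 1.25% were higher at that p. The list summed to 273, 89.7 and 125 CPM in stress and 99.4, 159 and 42.3 CPM in enriched animals. Stress replicate 1 was highest and enriched replicate 3 lowest, and without stress replicate 1 the median was -0.03. Ngp, a granule protein of neutrophils, had 50.5, 11.6 and 20.1 CPM in stress and 16.2, 24.3 and 6.58 CPM in enriched animals. Red cell genes went the other way, with 6 of 6 below 0 (median -0.29) and Hbb-bs, a beta-globin chosen after its values were seen, at 208, 20.4 and 44.1 CPM in stress and 161, 58.7 and 130 CPM in enriched animals. The red cell list summed to 55.6 to 470 CPM in stress and 135 to 343 CPM in enriched animals. The part of blood left in the perfused brains in these values was not tested.

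Endothelial genes were above 0 in 17 of 18 (median 0.23) and pericyte and smooth muscle genes in 13 of 14 (median 0.24). Ly6c1, a marker of brain endothelium, had 47.4, 87.9 and 60.8 CPM in stress and 36.0, 46.5 and 49.1 CPM in enriched animals, overlapping only through stress replicate 1. Vwf, the clotting factor of vessel walls, had 55.4, 78.5 and 42.9 CPM in stress and 28.0, 49.7 and 41.6 CPM in enriched animals. Higd1b, a pericyte gene, had 2.19, 2.28 and 2.69 CPM in stress and 1.26, 1.25 and 2.07 CPM in enriched animals, without overlap (log2 fold change 0.64 ± 0.274). The endothelial list summed to 431, 743 and 371 CPM in stress and 326, 488 and 500 CPM in enriched animals, so stress replicate 2 stood apart, and leaving out single libraries moved its median between -0.16 and 0.41.

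Transcripts that belong to single tissues differed widely between animals of the same group. Omp and Stoml3, genes of olfactory sensory neurons in the nose, marked enriched replicates 1 and 3. Their list as a whole could be tested in 11 of 15 cases, 6 below and 5 above 0 (median -0.03). Its summed level, which abundant members dominate, was highest in stress replicate 3, at 816 CPM. Enriched animals had sums of 678, 583 and 721 CPM. The mean log2 CPM of its tested members, which counts each alike, was highest in enriched replicates 1 and 3. Relative to the standard mean it was 1.61, 0.02 and 1.71 in enriched and 0.02, 0.72 and 0.51 in stress animals. Omp had 0.911, 4.06 and 1.16 CPM in stress and 67.3, 0.476 and 50.3 CPM in enriched animals, and its log2 fold change was -4.26 ± 1.19. Stoml3 had 0.425, 1.05 and 0.305 CPM in stress and 11.1, 0.416 and 10.5 CPM in enriched animals. Enriched replicate 2 was as low as the stress animals in both, and without it these 2 genes passed edgeR's test with Benjamini-Hochberg adjustment. Nasal and mucosal epithelium genes could be tested in 7 of 15 cases, 3 below and 4 above 0. Bpifa1, a secreted protein of the airway lining, had 3, 1 and 1 reads in stress and 24, 12 and 59 reads in enriched animals. It had the smallest unadjusted p of all genes, 0.000258 in edgeR's test, and the 2 animals with the most reads were again enriched replicates 1 and 3. Reg3g, an antibacterial lectin of mucosal surfaces, had 1, 4 and 1 reads in stress and 30, 15 and 13 reads in enriched animals.

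Transcripts of the choroid plexus, which makes cerebrospinal fluid, ran the other way. Ttr, its carrier protein for thyroxine, had 330, 1427 and 1393 CPM in stress and 24.02, 2023 and 11.04 CPM in enriched animals. Enriched replicates 1 and 3 were far below the others, and enriched replicate 2 was the highest of the 6. Choroid plexus genes were above 0 in 13 of 15 (median 0.33), and leaving out single libraries moved the median from -0.17 to 2.61. The list summed to 691 to 2093 CPM in stress, 214 to 3009 CPM in enriched and 3897 to 4939 CPM in standard animals.

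Brain stem and monoamine neuron genes were above 0 in 19 of 19 (median 0.66). In none did the groups stand apart, while 5.06% of all genes were higher in stress without overlap. The list summed to 254, 132 and 58.5 CPM in stress and 136.5, 102 and 63.0 CPM in enriched animals. Leaving out single libraries moved its median between 0.07 and 1.27. Tph2, the enzyme that makes serotonin, had 56.3, 0.862 and 2.02 CPM in stress and 7.73, 0.773 and 1.003 CPM in enriched animals. Slc6a4, the serotonin transporter, had 34.5, 0.431 and 0.611 CPM in stress and 3.23, 0.119 and 0.125 CPM in enriched animals. Both high values came from stress replicate 1, which also had the most mature oligodendrocyte transcripts of the 6, with Mbp, a myelin protein, at 1524 CPM against 956 and 640 CPM in the other stress animals and 927, 722 and 740 CPM in enriched animals. All 15 mature oligodendrocyte genes were above 0 (median 0.22), against 4 of 14 precursor genes (median -0.08). Gpr17, a receptor of maturing precursors, had 29.5, 22.8 and 20.9 CPM in stress and 28.2, 34.2 and 39.4 CPM in enriched animals (log2 fold change -0.47 ± 0.159). The first principal component of the 14 regional lists was also used as a covariate. The median of the brain stem genes was then -0.70 and that of the immediate early genes -0.38. The brain stem list is itself among the 14, so its adjusted median is no separate check. The component stood at 0.14, 0.26 and -0.35 in stress and at -1.19, 0.30 and -1.84 in enriched animals. It was lowest in enriched replicates 1 and 3, while the brain stem list was lowest in stress replicate 3. The part of regional content was not tested further.

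**Figure D4:**
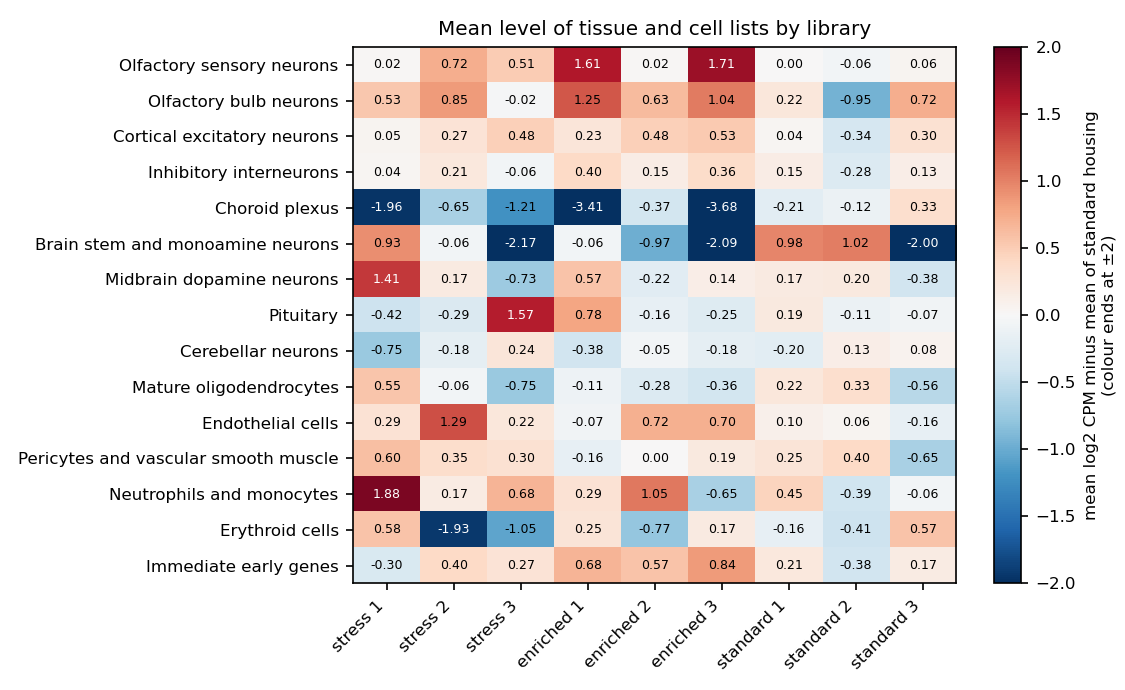
Mean log2 CPM of each tissue, cell or activity list in every library, as the difference from the mean of the 3 standard libraries, with the value written in each cell and colours ending at ±2. Enriched replicates 1 and 3 are high for olfactory sensory neurons and low for choroid plexus, stress replicate 1 is high for neutrophils, and immediate early genes are highest in the 3 enriched libraries.

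**Figure D5:**
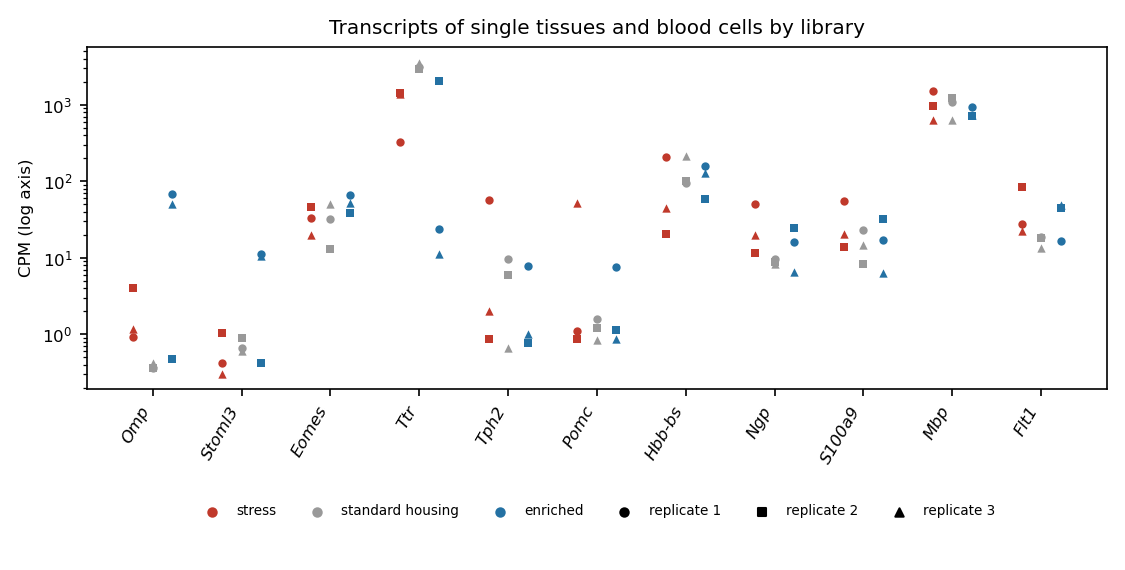
CPM (log axis) of 11 genes of single tissues or cell types in every library, with colours for the housing and marker shapes for the replicate. Omp and Stoml3 are high in enriched replicates 1 and 3, Ttr is low in the same animals, Tph2 is highest in stress replicate 1 and Pomc in stress replicate 3.

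The genes with the smallest p among those higher in stress did not share 1 tissue, and none passed. Bicd2 (gene 76895, chr13:49341549-49387026), an adaptor that links cargo to the dynein motor, had 78.7, 81.2 and 78.6 CPM in stress and 50.6, 58.1 and 63.0 CPM in enriched animals. The stress animals lay close together and above all enriched animals, with a log2 fold change of 0.47 ± 0.0984 and an unadjusted p of 0.000753 in edgeR's test. Npm1, a protein of the nucleolus that serves ribosome assembly, had 150, 162 and 165 CPM in stress and 105, 137 and 122 CPM in enriched animals (log2 fold change 0.39 ± 0.108). Uchl5, a deubiquitinating enzyme of the proteasome, had 44.6, 46.7 and 52.3 CPM in stress and 31.0, 37.5 and 36.7 CPM in enriched animals. Cpne9, of the calcium-binding copine family, and Rbm6, an RNA-binding protein, had log2 fold changes of 0.40 ± 0.105 and 0.43 ± 0.117. Vwc2l, a secreted protein, had 41, 38 and 33 reads in stress and 9, 1 and 8 reads in enriched animals. The others of the 12 were Izumo4, 2510002D24Rik, Gm2004, Tmem209, Fam205a4 and Zfp692. In all 12 the stress values lay above the enriched ones, as they did in 5.06% of all genes. The 12 were picked by their small p, so this separation follows largely from the choice.

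Among the 12 with the smallest p that were lower in stress were Bpifa1, Reg3g, Stoml3, Nr4a3, Nr4a2, Fosb and Sik1, described above. Trib1, a pseudokinase that guides proteins to degradation, had 20.0, 25.6 and 23.8 CPM in stress and 35.0, 31.3 and 36.1 CPM in enriched animals, without overlap (log2 fold change -0.56 ± 0.133). Zfp608, a zinc finger protein, had 23.9, 21.3 and 12.4 CPM in stress and 36.5, 30.9 and 33.3 CPM in enriched animals. H2bc21, a histone H2B gene, had 11.4, 12.6 and 11.5 CPM in stress and 16.7, 15.5 and 19.3 CPM in enriched animals. Map3k20 overlapped, with 7, 10 and 3 reads in stress and 147, 133 and 9 reads in enriched animals.

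Large values were also seen at Jade3 and at the near copies Fam205a4 and Fam205a3. Jade3, a chromatin reader gene, was at 0 reads in all 3 stress animals and had 0, 78 and 53 reads in enriched animals, so enriched replicate 1 was at 0 as well. The standard animals had 48, 32 and 38 reads. The deposited table holds 4 of its 5 annotated coding transcripts. Such gaps are common, with every coding transcript present for 64.9% of genes. Nr4a3 has 4 of 6 and Bicd2 has 3 of 4. The part of the missing transcripts in these values was not tested. Fam205a4 had 114, 98 and 102 reads in stress and 35, 6 and 34 reads in enriched animals, while its near copy Fam205a3, named after its values were seen, had 16, 37 and 8 reads in stress and 84, 112 and 102 reads in enriched animals. The 4 Fam205a genes with a row summed to 28.8, 34.6 and 35.3 CPM in stress and 27.2, 36.2 and 35.6 CPM in enriched animals. The sums overlapped between the groups, and the values of the single copies are uncertain, since near copies can share reads.

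Genes of energy supply and protein synthesis lay slightly above 0. Nuclear oxidative phosphorylation genes were above 0 in 18 of 19 (median 0.10) and cytosolic ribosomal protein genes in 19 of 20 (median 0.10). Rpl10a, of the large ribosomal subunit, had 138, 140 and 177 CPM in stress and 138, 122 and 115 CPM in enriched animals. Stress replicate 3 was highest, and stress replicates 1 and 2 were close to enriched replicate 1. Sdhc, a subunit of respiratory complex II, was the exception in the first list, at 2.67, 2.21 and 2.56 CPM in stress and 3.77, 5.17 and 4.51 CPM in enriched animals. Both lists hold mostly short transcripts. The slope of a library's log2 level on transcript length was 0.05, 0.07 and -0.07 in stress and 0.03, 0.09 and 0.11 in enriched animals. With the length trend removed, both medians stayed within the spread between replicates. With the code letter as a covariate, which only the standard animals can separate from housing, both medians fell below 0, to -0.49 and -0.40. Standard replicate 1, the only standard animal with the letter C, had the highest sums of both lists, 7778 and 7534 CPM. Its length slope was -0.22, and its part in these medians was not tested.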

How the data were processed

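RNA sequencing of 9 mouse brain samples was used, 3 stress, 3 enriched and 3 standard. Per the labels' protocols, messenger RNA was selected with oligo(dT) beads and copied with random hexamers, and no strand marking or molecular identifier is described. Build GRCm38.p6 and the tools RSEM 1.2.12, HISAT2 2.0.4 and Bowtie2 2.2.5 are listed, with no roles, per the submitters' processing notes. The deposited table gives for each coding transcript an estimated count (56.5% of values not whole within 1e-09) and the authors' TPM and FPKM. TPM was used in an alternative and FPKM was not used. The table has 65535 transcript rows, and TPM sums to 956737 to 960729 per library, so transcripts beyond these rows were not analysed here. Every coding transcript of the annotation was present for 64.9% of the 18450 genes.

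Estimated counts were summed per gene, rounded and, in R 4.3.3 with edgeR 4.0.16, filtered by filterByExpr at a minimum count of 10 and a minimum total of 15. All 9 libraries entered 1 quasi-likelihood fit by group with TMM scaling (factors 0.964 to 1.025) and 6 residual degrees of freedom, adjusted by Benjamini-Hochberg over all genes with a threshold of 0.05. Standard errors came from that test's F statistic. DESeq2 1.42.0 and limma 3.58.1 were alternatives. The test was tested on simulated data. Symbols came from RefSeq and matched 18398 gene identifiers. The 9 libraries differed by more than sampling noise (chi-square per gene 7.63 or more between stress and enriched libraries), so all were kept.

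Of 51 lists with 786 different genes, 761 genes had a row, and 2 lists had under 3 tested members. Members, lists and named genes were chosen with earlier results of these data known, so lists are described by counts and medians and not tested. Named genes were the 12 with the smallest p in each direction, up to 4 members with the smallest p in each list described, the 4 largest fold changes in each direction above a mean of 1 CPM, and a fixed set. Others are said to be chosen after their values were seen, or illustrate a list (Mbp, Btg2, Dusp1). At these depths the 3 animals a group limit the precision. Some genes that the rule selects are not reported here.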

Additional observations from a re-analysis of the deposited data

How the results depend on the processing

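No paired analysis was possible because the replicate numbers were given in accession order and the titles carry separate animal codes. No gene was called in any setting except with the code letter as a covariate (1 gene) and without enriched replicate 2 (Omp and Stoml3). The covariate is separated from housing only by standard replicate 1, and the cause of the values below was not tested. The bulb covariate and the joint omission of enriched replicates 1 and 3 were chosen after seeing the data, and the joint omission leaves 1 enriched animal. With the code letter as a covariate, genes called numbered 1 and genes at an unadjusted p under 0.05 numbered 672. With the code letter as a covariate, list medians were 0.0091 for neurotrophins and growth factors, 0.17 for glutamate receptor subunits, 0.053 for pericytes and vascular smooth muscle, -0.49 for MHC class II presentation, -0.45 for MHC class I presentation, -0.22 for T and NK cells, -0.11 for T cell recruitment, -0.43 for interferon-stimulated genes, -0.48 for nuclear oxidative phosphorylation genes, -0.40 for cytosolic ribosomal protein genes, 0.14 for circadian clock genes, -0.38 for heat shock proteins. With the code letter as a covariate, log2 fold changes reversed to 0.14 for Inhba, 0.049 for Zbtb16, -0.17 for Rpl10a, 0.82 for Cd4, -0.067 for Icam1, 0.38 for Hbb-bs, -0.031 for Ly6c1, -0.27 for Vwf, 0.25 for Bdnf, 0.37 for Nr3c1, 0.21 for App, 0.18 for Samd9l, 0.50 for Slc10a7, -0.25 for Ier2, 0.029 for Jun, 0.23 for Btg2, 0.088 for Dusp1. With the length trend removed, list medians were -0.079 for MHC class I presentation, 0.016 for circadian clock genes. With the length trend removed, log2 fold changes reversed to 0.063 for Samd9l. With limma on TPM plus 0.1, list medians were -0.043 for MHC class I presentation, -0.061 for T and NK cells, -0.13 for amyloid precursor processing. With limma on TPM plus 1, list medians were -0.042 for MHC class I presentation. With limma-voom and sample weights, genes at an unadjusted p under 0.05 numbered 1099. With limma-voom and sample weights, list medians were -0.11 for interferon-stimulated genes. With limma-voom and sample weights, log2 fold changes reversed to -0.10 for Pomc, -0.10 for Pcp2, 0.12 for Samd9l, 0.13 for Slc10a7, 0.0095 for Npas4. With the olfactory bulb list as a covariate, genes at an unadjusted p under 0.05 numbered 175. With the olfactory bulb list as a covariate, list medians were -0.029 for inhibitory interneurons, -0.026 for olfactory bulb neurons. With the olfactory bulb list as a covariate, log2 fold changes reversed to 0.060 for Hbb-bs, 0.10 for Slc10a7, 0.36 for Npas4, 0.032 for Btg2. With only the 6 libraries compared, genes at an unadjusted p under 0.05 numbered 583. With the regional component as a covariate, genes at an unadjusted p under 0.05 numbered 144. With the regional component as a covariate, list medians were -0.11 for inhibitory interneurons, -0.70 for brain stem and monoamine neurons, -0.059 for MHC class I presentation, 0.021 for plaque-associated microglia. With the regional component as a covariate, log2 fold changes reversed to 0.074 for Zbtb16, 0.36 for Hbb-bs, 0.13 for Trem2, 0.39 for Npas4, 0.024 for Btg2. Without enriched replicates 1 and 3 together, genes at an unadjusted p under 0.05 numbered 110. Without enriched replicates 1 and 3 together, list medians were -0.052 for later activity-induced genes, -0.069 for inhibitory interneurons, -0.12 for olfactory bulb neurons, -0.56 for nasal and mucosal epithelium, -0.044 for T cell recruitment. Without enriched replicates 1 and 3 together, log2 fold changes reversed to 0.50 for Stoml3, 2.09 for Omp, 0.012 for Cdkn1a, 0.053 for Fkbp5, 0.14 for Zbtb16, 0.63 for Hbb-bs, 0.51 for Th, 0.22 for Bdnf, -0.94 for Ttr, 0.11 for Samd9l, 0.10 for Trem2, 0.47 for Npas4, -0.014 for Ier2. With each single library left out in turn, genes called ranged from 0 to 2 and genes at an unadjusted p under 0.05 ranged from 223 to 578. List medians over these omissions ran from -0.78 to -0.29 for immediate early genes, from -0.22 to -0.11 for later activity-induced genes, from -0.13 to -0.034 for glucocorticoid receptor targets, from -0.19 to -0.00011 for stress hormone axis, from -0.16 to -0.010 for neurotrophins and growth factors, from -0.11 to 0.013 for glutamate receptor subunits, from -0.31 to -0.10 for postsynaptic scaffold and plasticity genes, from -0.30 to -0.18 for inhibitory interneurons, from -0.32 to -0.026 for cortical excitatory neurons, from -0.67 to -0.29 for olfactory bulb neurons, from -0.092 to 0.032 for olfactory sensory neurons. Medians ran from -0.29 to 0.19 for nasal and mucosal epithelium, from -0.17 to 2.61 for choroid plexus, from 0.069 to 1.27 for brain stem and monoamine neurons, from -0.025 to 1.35 for neutrophils and monocytes, from -1.62 to 0.10 for erythroid cells, from -0.16 to 0.41 for endothelial cells, from 0.087 to 0.44 for pericytes and vascular smooth muscle, from -0.11 to 0.51 for mature oligodendrocytes, from -0.17 to 0.029 for oligodendrocyte precursors, from -0.37 to -0.13 for MHC class II presentation, from -0.049 to 0.040 for MHC class I presentation. Medians ran from -0.085 to 0.21 for T and NK cells, from 0.14 to 0.36 for T cell recruitment, from -0.087 to 0.12 for interferon-stimulated genes, from -0.16 to 0.0047 for homeostatic microglia, from -0.15 to 0.0085 for plaque-associated microglia, from -0.092 to -0.048 for amyloid precursor processing, from 0.0036 to 0.18 for nuclear oxidative phosphorylation genes, from -0.040 to 0.20 for cytosolic ribosomal protein genes, from -0.10 to -0.0089 for circadian clock genes, from -0.10 to 0.075 for heat shock proteins, from -0.26 to 0.20 for cerebellar neurons. Log2 fold changes that changed sign over these omissions ran from -0.13 to 0.072 for Samd9l, from -0.21 to 0.14 for Slc10a7, from -0.14 to 0.18 for Btg2, from -0.47 to 0.052 for Trem2, from -0.93 to 0.28 for Npas4, from -1.14 to 4.48 for Tph2, from -1.15 to 6.53 for Slc6a4, from -0.40 to 0.0031 for Hspa1a, from -1.85 to 0.11 for Hbb-bs, from -0.0042 to 0.35 for Ier2, from -1.69 to 4.14 for Pomc, from -0.31 to 0.61 for Pcp2. The filter on at least 1 CPM, no filter, DESeq2 and its size factors left each list median within the spread between replicates. The T cell genes Cd8a and Cd3e were too low to be tested at this depth.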

Other observations

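Circadian clock genes were 13 below and 6 above 0 (median -0.06). Dbp, an output factor of the clock, had 78.2, 61.8 and 61.1 CPM in stress and 54.0, 53.3 and 58.5 CPM in enriched animals, without overlap (log2 fold change 0.28 ± 0.118). Cry1, a repressor of the clock, had 33.9, 39.3 and 40.2 CPM in stress and 44.99, 44.95 and 42.8 CPM in enriched animals, also without overlap and in the other direction. Neither passed the test after adjustment, and the hour of tissue collection is unknown here.

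Heat shock proteins were 8 above and 7 below 0 (median 0.04). Hsp90aa1, a chaperone that also holds steroid receptors, had 1118, 1163 and 1343 CPM in stress and 934, 994 and 1079 CPM in enriched animals, without overlap (log2 fold change 0.27 ± 0.112). Hspa1a and Hspa1b, inducible chaperones that are near copies of each other, had log2 fold changes of -0.21 ± 0.240 and -0.27 ± 0.261, with overlap in both. The medians of the 16 further lists with at least 3 tested members lay between -0.12 and 0.59, and no member of any list passed the test.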
